A study of Mus musculus with 6 samples.

Results

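The 10 genes described here encode tubulin isotypes, 3 of alpha-tubulin (Tuba1a, Tuba1b, Tuba4a) and 7 of beta-tubulin (Tubb2a, Tubb2b, Tubb3, Tubb4a, Tubb4b, Tubb5, Tubb6). They were chosen by gene name, with earlier results of these data known. They make up 10 of 15450 named genes and 13 of 26691 transcript rows of the deposited table. Mouse eyes received an adeno-associated virus (AAV) for 2 weeks, which carried Sox11, a transcription factor of developing neurons (AAV-Sox11), or the control cargo PLAP (AAV-Control). The mice were 3 to 4 weeks old at the start, and the groups are described as roughly balanced for age and sex. In both groups the optic nerve was crushed 3 days before sacrifice, so no uninjured eye enters the comparison. Retinas were dissociated with papain, and live cells that carried the surface protein Thy1 were sorted by flow cytometry to obtain retinal ganglion cells, whose axons form the optic nerve. Each library pooled 3 retinas from 3 animals and was made with kits for very low RNA input. Each group had 3 libraries, A, B and C, and the AAV-Control and AAV-Sox11 preparations of a letter were made on the same day. The sources used here do not state the promoter of the virus or how many ganglion cells it reached.

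Microtubules are hollow polymers of paired alpha- and beta-tubulin, and they form the tracks of axonal transport and the frame of the growing axon. Mammals carry several genes for each partner, whose proteins are nearly alike in the body and differ most in the short acidic tail at the C-terminal end, where enzymes add or remove glutamate, glycine or tyrosine and where many microtubule-associated proteins bind. Tuba1a and Tubb3 are known for developing and regenerating neurons, Tubb3 also as the antigen of the TUJ1 antibody used to stain ganglion cells, Tubb2b for the migration of young neurons, and Tubb4a for mature brain and oligodendrocytes. Tubb5 and Tuba1b are made in most cell types. Free tubulin also sets the stability of its own mRNA: Ttc5 binds the first amino acids of a new tubulin chain and recruits the CCR4-NOT deadenylase.

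The ends of the coding sequences of 6 beta isotypes are shown first, because they encode the tails in which isotypes differ and show which genes a short read can tell apart. All stretches are the last 60 bases of the coding sequence with the stop codon, from the GENCODE M21 transcripts (build GRCm38), written 5′ to 3′. Capitals mark bases that differ, in an alignment of the coding sequences, from the isotype named. Inserted bases are in capitals, while bases that the isotype shown lacks leave no mark. Tubb4a had the most abundant transcript and serves as the reference, except for Tubb2b, whose capitals mark differences from Tubb2a.
Tubb4a: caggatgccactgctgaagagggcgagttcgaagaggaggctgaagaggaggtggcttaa
Tubb4b: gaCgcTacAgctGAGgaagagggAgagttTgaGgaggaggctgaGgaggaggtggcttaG
Tubb5: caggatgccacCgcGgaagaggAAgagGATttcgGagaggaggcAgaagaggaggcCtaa
Tubb2a: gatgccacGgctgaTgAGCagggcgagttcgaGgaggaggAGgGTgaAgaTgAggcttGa
Tubb2b: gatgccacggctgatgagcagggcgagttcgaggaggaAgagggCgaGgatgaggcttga
Tubb3: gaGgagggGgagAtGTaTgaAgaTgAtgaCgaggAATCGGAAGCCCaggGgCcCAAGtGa
The stretch of Tubb3 carries 29 bases marked as differing from Tubb4a, and those of Tubb2a, Tubb4b and Tubb5 carry 14, 11 and 10. The count for Tubb5 leaves out bases of Tubb4a that it lacks. Both of these coding sequences are 1335 bases long but align over 1338 columns. Tubb2b differs from Tubb2a at 3 bases, and the full coding sequences of this pair were 96.5% identical with a shared run of 551 bases. Every other pair of beta isotypes was between 80.2% and 85.9% identical. Among the alpha isotypes, the coding sequences of Tuba1a and Tuba1b were 98.3% identical, with 23 differing positions and a longest shared run of 281 bases. At the other end, the first 12 coding bases, which span the amino acids read by Ttc5, were atgcgtgagtgc in both Tuba1a and Tuba1b and atgagggagatc in both Tubb3 and Tubb4b. Tubb5 starts with atgagggaaatc, Tubb4a with atgcgggaaatc, Tubb2a with atgcgcgagatc and Tubb2b with atgcgagagatc. The annotated coding start of the Tuba4a transcript is incomplete, so it was not compared at that end.

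Shared sequence limits what the values of some isotypes mean, since reads from near-identical copies can be split between genes by rules that the sources used here do not record. Of all 50-base windows of the main transcript, 83.1% in Tuba1b and 75.5% in Tuba1a also occur in an annotated transcript of another gene, mostly Tuba1c, each other and processed pseudogenes. The share was 55.5% in Tubb4b, 49.6% in Tubb2a, 39.3% in Tubb2b and 30.3% in Tuba4a, where nearly all of it is overlap with Stk16 on the opposite strand. In Tubb4a and Tubb5 it was 0.184% and 0.115%, and in Tubb3 and Tubb6 it was 0. Tubb3 still overlaps another annotated gene on its own strand, Gm20388, and Tuba1a and Tuba1b overlap Gm49450. Whether counting used strand is not stated, so antisense overlap cannot be separated.

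**Figure D1:**
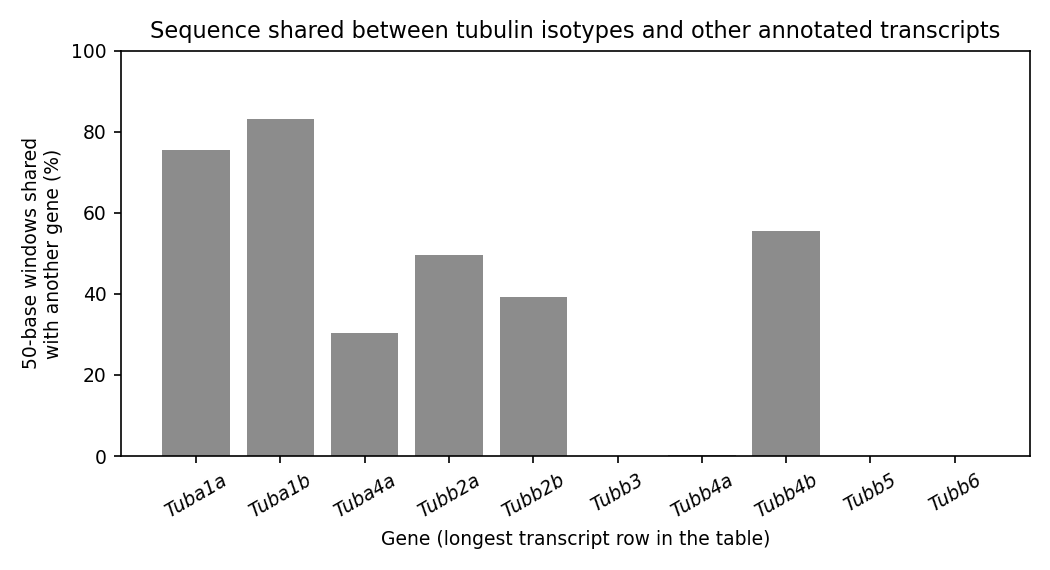
Share of the 50-base windows of each isotype's longest transcript row that also occur in an annotated transcript of another gene (vertical axis, %, bars). Tuba1b (83.1%) and Tuba1a (75.5%) share most, while Tubb3, Tubb4a, Tubb5 and Tubb6 share almost nothing.

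The deposited whole-number values summed to between 10747985 and 11546892 per library. The normalized values used below are these times 1 factor per library (0.9649 to 1.0425), they have no stated unit, and the 10 isotypes held between 0.174% and 0.208% of them. One direction of variation between libraries had an SD of 9.48e-05 natural log units, against 0.098 to 0.242 in the others, so the deposited values lack part of the spread between replicates. Its squared weight was 18.4%, 57.7% and 12.45% on AAV-Sox11 A, B and C and 0.00272%, 5.04% and 6.37% on AAV-Control A, B and C. The missing spread thus lies mostly within AAV-Sox11. Sox11 itself was at 131, 111 and 100.3 in AAV-Control A, B and C and at 179, 234 and 284 in AAV-Sox11 (a difference of 1.003 ± 0.197 SE on the log2 scale, adjusted p = 0.0504 in limma). The Thy1 sort did not give ganglion cell transcripts alone. Of 13 ganglion cell markers 12 had a row, and their summed value was 10626 to 13440 in AAV-Control and 10663 to 13727 in AAV-Sox11. In the same order 8 rod markers summed to 37813 to 59859 and 23600 to 43214, and 7 of 8 amacrine markers to 9683 to 13786 and 11468 to 13996. Summed values of 5 of 6 Muller glia markers were 32254 to 54801 and 43245 to 51211. Most of that sum was 1 gene, Dkk3, at 26817 to 43933 and 36838 to 43615. Among the oligodendrocyte markers Mobp and Mag had no row and 4 summed to 767 to 848 and 693 to 758. AAV-Control A had the highest summed value of the libraries for markers of rods, cones, bipolar cells, horizontal cells, Muller glia, astrocytes, endothelium and mural cells. Summed bipolar markers were at 7257 to 10071 in AAV-Control and 6189 to 7138 in AAV-Sox11, with all 7 negative in log2 fold change. Most of that sum was Prkca, at 5392 to 6413 and 5237 to 5807, with a log2 fold change of -0.06. Microglia markers summed to 2260 to 5626 and 2034 to 2895, with all 5 negative and a median of -0.57. The part of these cell types in the differences of the isotypes was not tested. In bulk samples, fewer cells of a type and less RNA per cell cannot be told apart.

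Per kilobase of transcript, the scale on which levels of different genes are compared, Tubb4a was the most abundant isotype, with a mean of 3933 over the 6 libraries, followed by Tuba1a at 2324. Tuba1b (1270), Tubb5 (980), Tubb2a (964) and Tubb4b (656) came next, and each of these overlapped with its neighbour in the order. Tuba4a (315) lay apart from both its neighbours. Tubb6 (120) and Tubb3 (55.1) overlapped, and Tubb2b was lowest at 12.7. The level of Tubb4a was thus 71.4 times that of Tubb3, the isotype by which ganglion cells are commonly stained, and the highest and lowest isotypes lay 309-fold apart. Tubb2a was 75.8 times as abundant as its close relative Tubb2b. This order was a description and was not tested.

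No isotype passed the test between AAV-Sox11 and AAV-Control: 0 of 10 had an adjusted p under 0.05 in limma, where 2.32% of all genes did (0.796% higher and 1.52% lower with AAV-Sox11). At an unadjusted p under 0.05 it was 4 of 10, against 24.3% of all genes. The log2 fold change was positive in 8 of 10, against 53.8% of all genes, and its median was 0.27, against 0.03 over all genes. In 5 isotypes all AAV-Sox11 libraries lay above all AAV-Control libraries, which was true of 16.2% of all genes, and in 0 they all lay below (14.4% of all genes). The 5 were Tuba1b, Tubb2b, Tubb3, Tubb4b and Tubb5.

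**Figure D2:**
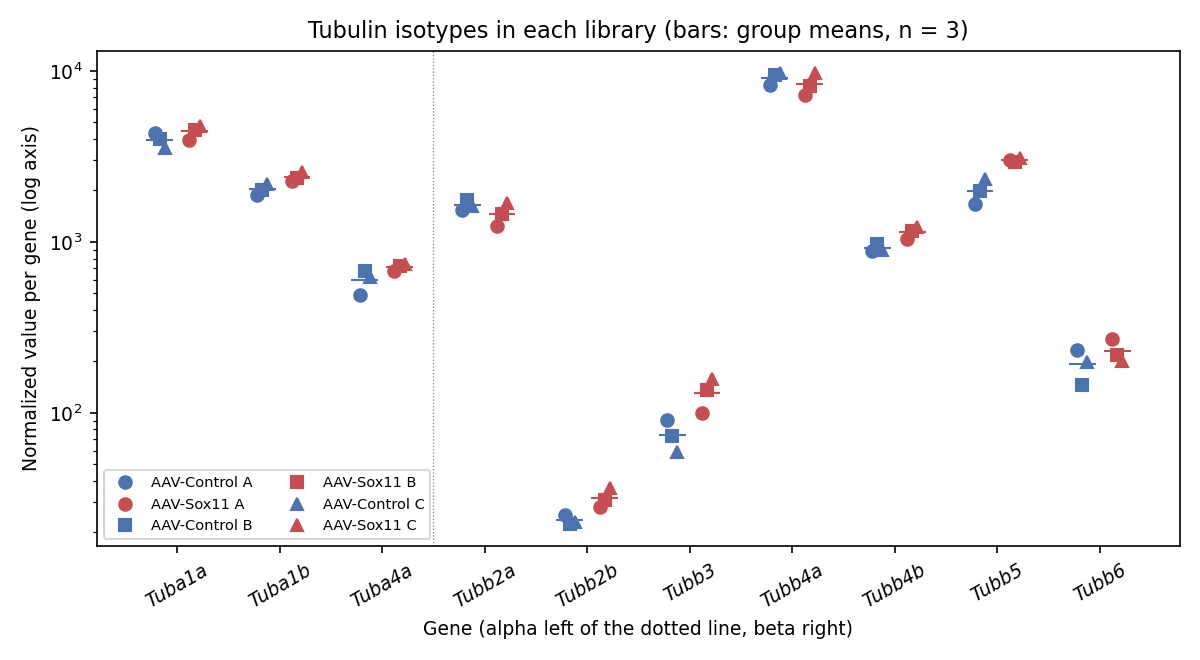
Normalized value of each isotype (vertical log axis, no stated unit) in the 3 AAV-Control libraries (blue) and the 3 AAV-Sox11 libraries (red), with symbols for letters A, B and C and bars for group means. Tubb5 shows the widest gap between the groups, from 2345 to 2932, whereas Tubb4a and Tubb2a overlap with lower means in AAV-Sox11.

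Tubb5, a beta-tubulin of most cell types, came nearest to the threshold. Its values were 1658, 1979 and 2345 in AAV-Control A, B and C and 3001, 2932 and 3109 in AAV-Sox11. The AAV-Sox11 libraries lay close together and above all controls, of which C was highest. The spread that the deposited values lack lies mostly within AAV-Sox11, and its part in this closeness was not tested. Group means were 1994 ± 343 and 3014 ± 89.5 (SD, n = 3), a log2 fold change of 0.61 ± 0.12 SE or 1.53-fold, with adjusted p = 0.0536 in limma. With the replicate letter as a block, the adjusted p of Tubb5 was 0.0375, under which 4.77% of all genes passed. Without AAV-Control C it was 0.0299 in limma, with a log2 fold change of 0.73, and over all alternatives it ranged from 0.0299 to 0.254.

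The Tubb5 signal lay almost wholly on the full-length transcript ENSMUST00000001566, chr17:35833921-35838306 on the minus strand, with 4 exons and between 97.7% and 98.7% of the gene's value. A minor row with a retained intron, ENSMUST00000173253, was at 19.4, 12.7 and 16.4 in AAV-Control and 37.5, 31.2 and 27.2 in AAV-Sox11, also without overlap (transcript-level adjusted p = 0.0862 in limma, where 1.97% of all rows passed). The other short row, ENSMUST00000134978, overlapped between the groups at means of 18.1 ± 6.37 and 22.04 ± 9.33 (SD, n = 3). In the authors' deposited table the full-length row had a log2 fold change of 0.595 with a false discovery rate of 0.00409, and the retained-intron row 0.973 with 0.0488; in that comparison 1.93% of rows were higher with AAV-Sox11 at a rate under 0.05 and 4.91% lower.

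Tubb3, the neuronal beta isotype, had the largest fold difference of the 10. It lies at chr8:123411424-123422015 on the plus strand and rests on 1 row of 4 exons. Its values were 91.3, 73.5 and 58.8 in AAV-Control A, B and C and 100.1, 136 and 158 in AAV-Sox11. The groups did not overlap, but AAV-Control A and AAV-Sox11 A lay close together, and the difference was widest between the C libraries. Means were 74.6 ± 16.2 and 131 ± 29.2 (SD, n = 3), a log2 fold change of 0.81 ± 0.23 SE or 1.75-fold, with adjusted p = 0.0978 in limma. In the authors' deposited table Tubb3 had a log2 fold change of 0.817 and a false discovery rate of 0.0318.

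Other ganglion cell transcripts had log2 fold changes of both signs. Of the 12 measured markers 8 had a positive log2 fold change, against 53.8% of all genes. At an adjusted p under 0.05 in limma 1 rose (Stmn2) and 1 fell, against 0.796% and 1.52% of all genes. The one that fell was Ebf1, a transcription factor named after its values were seen, at 2650, 2731 and 3344 in AAV-Control and 1553, 1558 and 1798 in AAV-Sox11 (adjusted p = 0.0204 in limma). Nefl, Nefm and Isl1 had log2 fold changes of -0.33, -0.39 and -0.04, and Rbpms of 0.02. Slc17a6, the glutamate transporter of ganglion cells, was at 0.99, Pou4f2 at 1.47, Pou4f1 at 0.78 and Nefh at 0.77. Sncg and Thy1 were at 0.59 and 0.37, and none of these genes passed. The median over the 12 markers was 0.48. All AAV-Sox11 libraries lay above all controls in 4 markers and below them in 1, against 16.2% and 14.4% of all genes. The mean centred log2 value of the 12 ganglion cell markers was -0.13, -0.02 and -0.41 in AAV-Control A, B and C and -0.05, 0.27 and 0.34 in AAV-Sox11, lowest in AAV-Control C and highest in AAV-Sox11 C, as for Tubb3, but with AAV-Control B above AAV-Sox11 A, unlike Tubb3. A sex index, Xist against 4 Y-linked genes on the log2 scale, was 6.82, 6.79 and 5.26 in AAV-Control and 6.87, 8.11 and 8.45 in AAV-Sox11. The groups did not overlap in this index, although the A libraries lay close together, so it did not show the described balance of sex. Tubb3 differed by 0.28 on the log2 scale once the index was a covariate. The part of the markers in the difference of Tubb3 was not tested. By Pearson correlation over the 6 libraries, the 5 genes of mean value at least 100 closest to Tubb3 were Hipk4 (0.998), Pisd-ps1, Smurf2, Zfp597 (each 0.996) and Bop1 (0.995). Of 9510 genes compared, 129 (1.36%) reached 0.95, and all share the same 6 libraries.

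Tubb4b, a widely made beta isotype, was at 887, 972 and 895 in AAV-Control A, B and C and at 1041, 1162 and 1225 in AAV-Sox11. All AAV-Sox11 libraries lay above the controls, with means of 918 ± 46.6 and 1143 ± 93.1 (SD, n = 3). The log2 fold change was 0.31 ± 0.09 SE, with adjusted p = 0.099 in limma. Its full-length row, chr2:25222160-25224702 on the minus strand, held between 97.5% and 99.1% of the value.

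A processed pseudogene of the same gene, Tubb4b-ps1, differed the other way. It was named after its values had been seen, shares 43.6% of the windows of Tubb4b, and lies at chr5:7179365-7180700 on the plus strand, inside Zfp804b on the opposite strand. Its values were 148, 109.8 and 107 in AAV-Control and 40.7, 37.4 and 34.2 in AAV-Sox11. It fell, with a log2 fold change of -1.66 ± 0.19 SE and a transcript-level adjusted p of 0.0183 in limma, where 1.46% of rows were lower. The sum of Tubb4b and the pseudogene was 1040 ± 39.8 and 1180 ± 90.0 (SD, n = 3), with a log2 difference of 0.18 ± 0.09 SE (adjusted p = 0.252 in limma), against 0.31 for Tubb4b alone. Whether reads were split between the 2 copies was not tested.

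Tubb2b, the isotype of migrating neurons, was the least abundant member, at 25.2, 22.6 and 23.2 in AAV-Control and 28.2, 31.2 and 36.2 in AAV-Sox11. The groups did not overlap, and the log2 fold change was 0.41 ± 0.21 SE with adjusted p = 0.274 in limma. Its relative Tubb2a was at 1535, 1760 and 1632 in AAV-Control and 1236, 1459 and 1693 in AAV-Sox11. These groups overlapped, with a log2 fold change of -0.18 ± 0.12 SE and adjusted p = 0.415 in limma, which was -0.06 on the log2 scale without AAV-Sox11 A and -0.29 without AAV-Sox11 C. When both were summed, as a choice made after seeing the data, the log2 fold change was -0.17 ± 0.12 SE, a sum of which Tubb2a makes up nearly all.

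Tubb4a, the most abundant isotype, was at 8330, 9423 and 9694 in AAV-Control A, B and C and at 7252, 8193 and 9685 in AAV-Sox11. It was lower with AAV-Sox11 within each letter, by very little in C, and the groups overlapped. Means were 9149 ± 722 and 8377 ± 1227 (SD, n = 3), a log2 fold change of -0.13 ± 0.12 SE with adjusted p = 0.521 in limma. Without AAV-Sox11 A the log2 fold change was -0.04, and without AAV-Sox11 C it was -0.24. Tubb6 was at 234, 145 and 199 in AAV-Control and 270.0, 217 and 200.1 in AAV-Sox11, a log2 difference of 0.26 ± 0.20 SE (adjusted p = 0.454 in limma). Its groups overlapped, although AAV-Sox11 was higher within each letter, and the log2 difference was 0.07 without AAV-Control B, 0.14 without AAV-Sox11 A and 0.42 without AAV-Control A.

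The 3 alpha isotypes all had positive log2 fold changes. Tuba1a, the alpha isotype of developing neurons (chr15:98949837-98953703, minus strand), was at 4317, 4012 and 3523 in AAV-Control A, B and C and at 3955, 4540 and 4788 in AAV-Sox11. The groups overlapped, AAV-Sox11 A lying below AAV-Control A and B, and the log2 fold change was 0.16 ± 0.11 SE (adjusted p = 0.379 in limma), or 0.08 without AAV-Control C. Tuba1b (chr15:98931425-98934565, minus strand) was at 1893, 2014 and 2196 in AAV-Control and 2271, 2353 and 2559 in AAV-Sox11, without overlap. Its log2 fold change was 0.24 ± 0.09 SE with adjusted p = 0.157 in limma. Summed with Tuba1c and the pseudogene Gm17383, with which they share much sequence, Tuba1a and Tuba1b gave 6122 ± 211 and 6960 ± 557 (SD, n = 3), a log2 fold change of 0.18 ± 0.08 SE. Tuba4a, a mature isotype whose mRNA already encodes a tail without the final tyrosine, was at 487, 678 and 621 in AAV-Control and 673, 728 and 744 in AAV-Sox11, overlapping by 1 library (log2 fold change 0.28 ± 0.13 SE, adjusted p = 0.251 in limma, or 0.14 on the log2 scale without AAV-Control A).

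**Figure D3:**
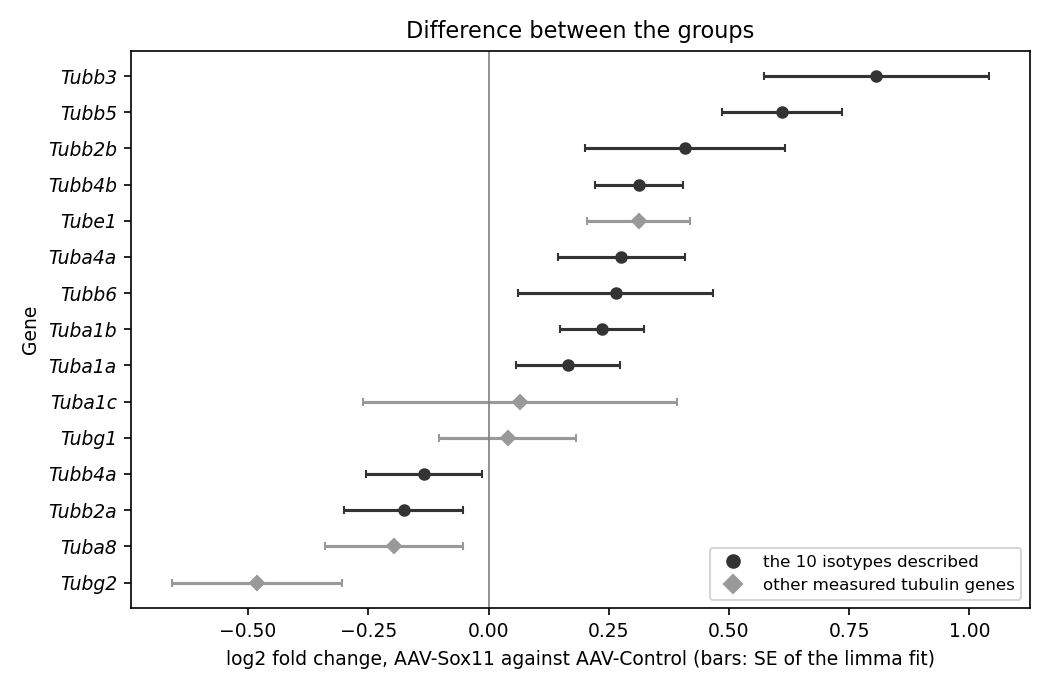
Log2 fold change between AAV-Sox11 and AAV-Control (horizontal axis, points, with the SE of the limma fit as bars) for the 10 isotypes (black circles) and 5 other measured tubulin genes (grey diamonds). Tubb3 (0.81) and Tubb5 (0.61) lie farthest to the right, and Tubb4a (-0.13) and Tubb2a (-0.18) are the isotypes left of 0.

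The summed level of tubulin overlapped between the groups, whereas several isotypes' shares of it did not. The 10 isotypes summed to 20575 ± 968 in AAV-Control and 21926 ± 2190 in AAV-Sox11 (SD, n = 3; log2 difference 0.09, two-sided exact permutation test over libraries, p = 0.4). Without AAV-Sox11 C this log2 difference was 0.015, without AAV-Sox11 A 0.158, and on the unscaled whole numbers 0.006. With 3 libraries against 3 this exact test cannot go below p = 0.1. The alpha isotypes summed to 6581 ± 208 and 7537 ± 600 (SD, n = 3; log2 difference 0.19, exact p = 0.1) without overlap, and the beta isotypes to 13994 ± 1094 and 14389 ± 1604 (log2 difference 0.04, exact p = 0.9). On the unscaled whole numbers the log2 difference of the alpha sum was 0.112 (exact p = 0.3). The ratio of beta to alpha was 2.13 ± 0.22 and 1.91 ± 0.07 (SD, n = 3), lower with AAV-Sox11 within each letter but overlapping between the groups (exact p = 0.2). Its log2 difference of -0.156 was -0.085 without AAV-Control C. These sums are of values not divided by transcript length. Per kilobase of transcript the ratio was 1.83 ± 0.18 and 1.62 ± 0.06 (SD, n = 3; exact p = 0.2), also overlapping. Without Tubb4a, the remaining 9 isotypes summed to 11426 ± 269 and 13549 ± 968 (SD, n = 3; log2 difference 0.24, exact p = 0.1), again without overlap. This sum was not among those set beforehand. Leaving out Tubb4a, whose log2 fold change was negative, raises the difference by construction.

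As a share of the 10 isotypes, Tubb4a made up 42.8%, 44.7% and 45.8% in AAV-Control A, B and C and 36.6%, 37.7% and 40.02% in AAV-Sox11. Tubb5 made up 8.52%, 9.39% and 11.1% in AAV-Control and 15.1%, 13.5% and 12.8% in AAV-Sox11. The groups did not overlap for either, with a difference of -6.33 percentage points for Tubb4a and 4.16 for Tubb5. These shares are also of values not divided by transcript length. Per kilobase the differences were -5.66 and 3.26 percentage points, again without overlap. The groups were also apart in Tubb2a (7.98% ± 0.33 and 6.65% ± 0.38, SD, n = 3), Tuba1b, Tubb4b, Tubb3 and Tubb2b, each with the smallest exact permutation p this design allows, 0.1, and 0.143 after adjustment over the 10 shares. Tuba1a, Tuba4a and Tubb6 overlapped, at exact p = 0.7, 0.2 and 0.6. Shares of 1 sum are tied to each other, so a larger share of Tubb5 lowers the others by construction.

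Within the beta isotypes alone, Tubb4a held 65.4% ± 0.15 in AAV-Control and 58.1% ± 2.02 in AAV-Sox11 (SD, n = 3), and Tubb5 14.2% ± 1.45 and 21.1% ± 1.98. Per kilobase, mean shares of beta were 61.7% and 55.2% for Tubb4a and 11.7% and 17.5% for Tubb5. The 3 control libraries lay close together in the share of Tubb4a, although its level ranged from 8330 to 9694 among them. Tubb3 held 0.541% ± 0.161 and 0.906% ± 0.114 of beta. Within alpha the shares of all 3 isotypes overlapped: Tuba1a held 59.96% ± 4.45 and 58.7% ± 1.198, and Tuba1b 31.0% ± 3.29 and 31.8% ± 1.03 (SD, n = 3).

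**Figure D4:**
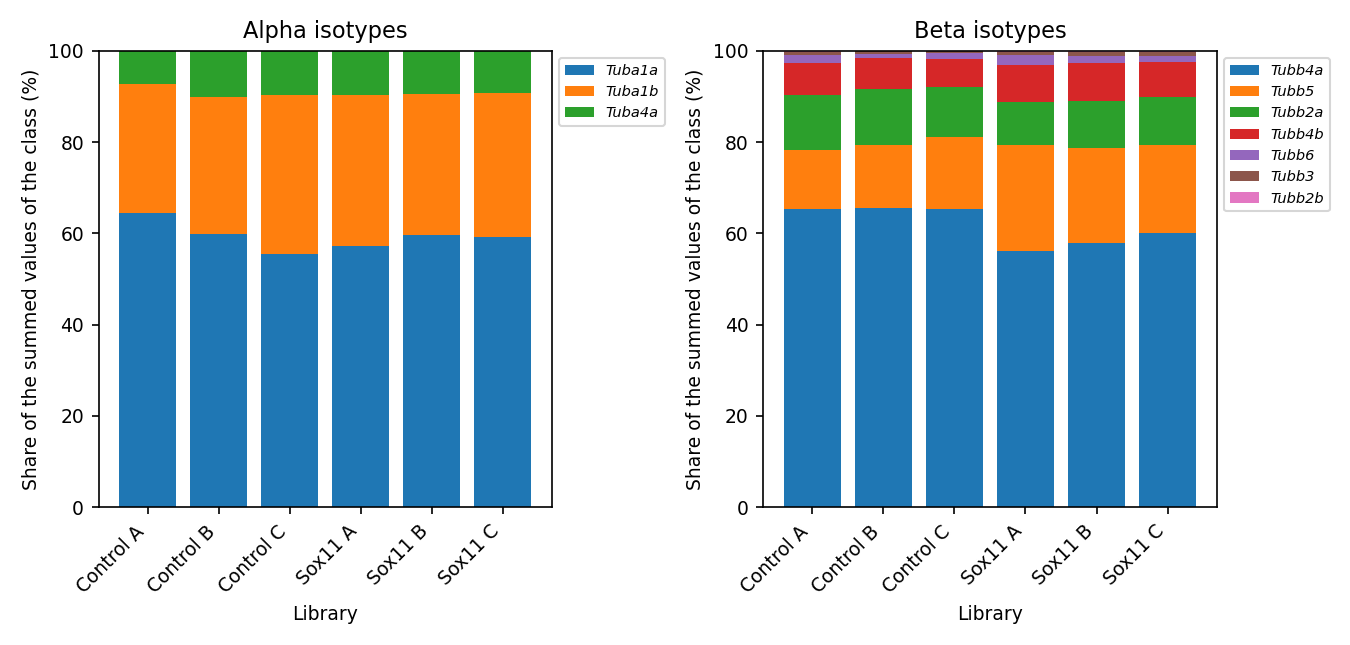
Share of each isotype in the summed normalized values of its class (vertical axis, %, stacked bars), with the 3 alpha isotypes on the left and the 7 beta isotypes on the right, for each of the 6 libraries. Tubb4a takes about the same share of beta in all 3 AAV-Control libraries and less in each AAV-Sox11 library, where Tubb5 takes more.

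Of 10 other tubulin genes 5 had a row, and 0 passed the test in either direction. This is near the 2.32% of all genes and so no result about them. Tube1, epsilon-tubulin of the centriole, was at 231 ± 14.3 and 287 ± 13.9 (SD, n = 3; log2 fold change 0.31, adjusted p = 0.139 in limma). Its groups did not overlap, and 16.2% of all genes were likewise apart and higher with AAV-Sox11. The gamma-tubulins, which nucleate microtubules, were at log2 fold changes of 0.04 for Tubg1 and -0.48 for Tubg2 (adjusted p = 0.155 in limma). Tuba1c and Tuba8 were at 0.07 and -0.20.

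Genes that fold new tubulin, the CCT chaperonin, prefoldin and the tubulin cofactors, had 0 of 22 measured past the threshold, which is near the 2.32% of all genes and so no result about the list. In 18 the log2 fold change was positive, against 53.8% of all genes, and the median was 0.15. Cct2, a subunit of CCT named after its values were seen, was at 2437 ± 205 and 3187 ± 115 (SD, n = 3), with a log2 fold change of 0.39 ± 0.09 SE and adjusted p = 0.0584 in limma. Another subunit, Cct3, went the other way at -0.49 ± 0.18 SE on the log2 scale (adjusted p = 0.159 in limma). The other measured subunits of the list were positive, with Cct6a lowest at 0.04. Of the enzymes that modify tubulin tails 17 of 28 had a row, 0 passed, and the median log2 fold change was 0.01. Ttl, which restores the final tyrosine of alpha-tubulin, was at 381 ± 55.7 and 383 ± 27.0. In the autoregulation list 0 of 9 passed, with a median of 0.06. Ttc5 was at 889 ± 30.04 and 1006 ± 50.1 (SD, n = 3), a log2 difference of 0.18 ± 0.08 SE (adjusted p = 0.225 in limma).

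Of 36 measured genes of the microtubule-associated list, 5 rose and 0 fell, against 0.796% and 1.52% of all genes, with a median of 0.04. This list, like the others, was drawn up with earlier results of these data known, so its counts are a description and no test. Dcx, the doublecortin of young neurons, was at 114, 128 and 66.6 in AAV-Control A, B and C and at 272, 403 and 374 in AAV-Sox11 (log2 fold change 1.79 ± 0.27 SE, adjusted p = 0.0247 in limma). Its relative Dclk1 rose by 1.07 ± 0.20 SE on the log2 scale, Stmn2, a stathmin of growth cones that is also in the ganglion cell list, by 1.04 ± 0.20, and Dpysl3, a collapsin response mediator, by 0.88 ± 0.16. Map1b, a microtubule-associated protein of growing axons named after its values were seen, was at 26136 ± 2703 and 47719 ± 4957 (SD, n = 3; log2 difference 0.87 ± 0.12 SE, adjusted p = 0.0201 in limma). Among genes of severing and nucleation 0 of 22 rose and 1 fell: Fign, the severing enzyme fidgetin, was at 813 ± 97.2 and 523 ± 27.9 (log2 fold change -0.63 ± 0.11 SE, adjusted p = 0.0394 in limma). These calls rest on each AAV-Sox11 library: without A, B or C of that group, 0 genes of the table passed in limma, with between 1942 and 3120 at an unadjusted p under 0.05. It was also 0 with the direction without spread or the sex index as a covariate (2582 and 2702 at an unadjusted p under 0.05).

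**Figure D5:**
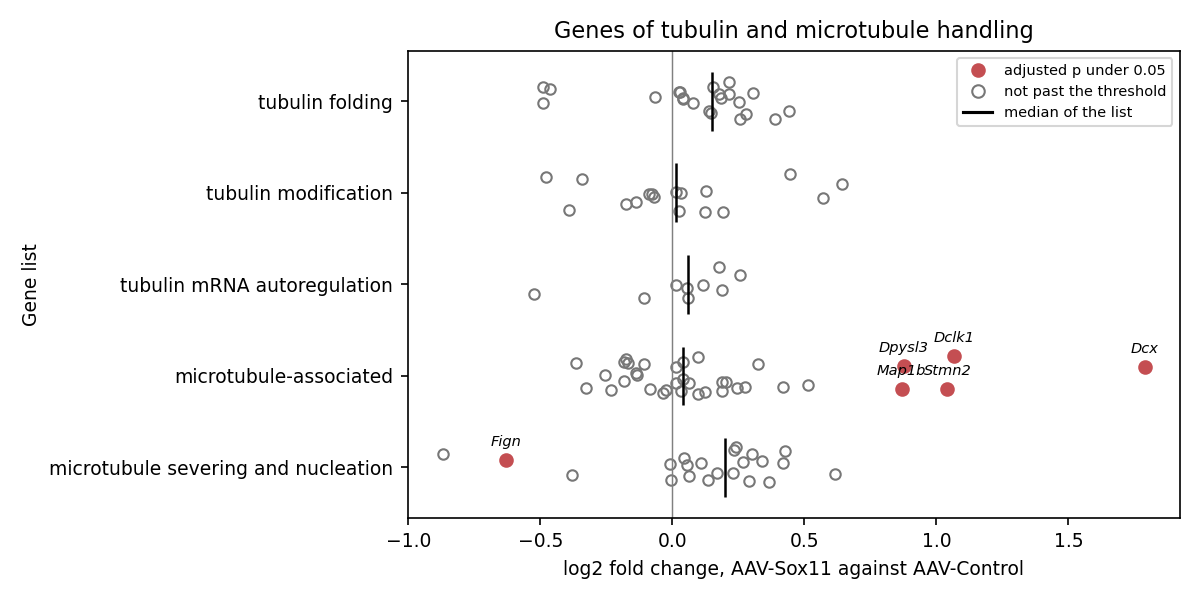
Log2 fold change between AAV-Sox11 and AAV-Control (horizontal axis) of each measured gene of 5 lists of tubulin and microtubule handling (rows), filled where the adjusted p was under 0.05, with a line at the list's median. The 5 filled genes on the right are microtubule-associated, and Fign is the filled gene on the left.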

How the data were processed

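RNA of 6 pools of sorted retinal cells, 3 per group, was compared. The authors deposited 1 table of transcript rows. Its whole-number columns are adjusted values, treated as a score, and its normalized columns are a signal, the authors' whole numbers times 1 factor per library. The authors also deposited a log2 fold change and p-values of their own comparison, named as theirs wherever given. CASAVA 1.8.2, edgeR and the build mm10 are named in the submitters' processing notes, while the aligner, counter, strand setting and annotation were not given in the sources used here. In all, 6 columns of log ratios per library were not used, and 357 rows without a gene name (0.422% to 0.517% of a library) were left out.

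Rows were summed by gene name. limma 3.58.1 in R 4.3.3 (trend, two-sided) was fitted to log2(value + 1) over all 15450 genes, or all 26691 rows, with Benjamini-Hochberg adjustment and a threshold of 0.05. This scale understates changes of low genes. The script was tested on simulated data, where 5.83% of the calls were false. The simulation had independent noise in every library and changed no genes of low value. It did not copy the spread that the deposited values lack, so it cannot give the error rate for these data. Shares and sums had exact permutation tests over libraries. P-values measure the spread between pools, some of which the deposited values lack.

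All members were named, and of each pathway list at most the 4 genes with the largest change among those past the threshold, besides the other tubulin genes, Ttc5 and Ttl. Map1b, Cct2, Cct3, Cct6a, Tubb4b-ps1 and the single marker genes were named outside this rule, after their values were seen. Members and lists were chosen with earlier results of these data known. Letters A, B and C pair the libraries, since the series text puts both preparations of a letter on the same day; same-letter deviations from the group means correlated at 0.0025, 0.793 and 0.236. Alternatives covered scaling, pseudocounts of 0.1 and 10, a minimum mean of 50, covariates, the block and left-out libraries. Summing genes that share at least 40% of 50-base windows was added after seeing the data. The coding ends of the alpha isotypes are not reported here.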

Additional observations from a re-analysis of the deposited data

How the results depend on the processing

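Of the 10 isotypes, 7 kept their direction and their side of the threshold under each of up to 22 alternatives; the exceptions were Tuba1a, Tubb2b and Tubb5. Tuba1a had a log2 fold change of -0.08 with the sex index as a covariate, and Tubb2b of -0.17 when summed with Tubb2a. As Tubb2a makes up nearly all of that sum, the -0.17 does not describe Tubb2b itself. Tubb5 passed in limma under robust empirical Bayes (adjusted p = 0.0495), the replicate block (0.0375) and without AAV-Control C (0.0299), so the number of isotypes past the threshold was 1 in each of these, and 0 to 1 over left-out libraries. The replicate block changed no other isotype's call.

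Over all genes, 123 were higher and 235 lower. The replicate block gave 323 and 414, and leaving out single libraries gave 0 to 339 higher and 0 to 406 lower. Leaving out both libraries of a letter gave 1 higher without A, 1 without B and 0 without C, and 0 lower in each. With the direction without spread, or the sex index, as a covariate, limma called 0 in either direction (2582 and 2702 at an unadjusted p under 0.05). Unscaled whole numbers, library totals and the upper quartile gave 388, 356 and 355 lower; other scalings moved the median of all genes by -0.0812 to -0.025 on the log2 scale. Whether these rest on the missing direction was not tested.

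The log2 difference of the summed beta isotypes was -0.044 with unscaled whole numbers, -0.027 with library totals and -0.011 with the upper quartile, and -0.047 to 0.111 over left-out libraries (negative without AAV-Control A, at -0.028, or AAV-Sox11 C). The share of Tuba1a differed by -0.407 (without AAV-Control C) to 2.373 percentage points over left-out libraries, and that of Tubb6 by -0.031 (without AAV-Sox11 A) to 0.249, with -0.008 without AAV-Control B. Tubb2b was not tested under the minimum mean of 50. Within pairs, the sum of alpha isotypes had an exact permutation p of 0.25, the smallest that this paired test allows. It therefore cannot be set against the exact p = 0.1 of the unpaired test.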
